A study of Homo sapiens with 12 samples.

Results

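The tripartite motif (TRIM) proteins form one of the largest families of RING-type ubiquitin ligases, and 70 protein-coding TRIM genes were found among the 20738 genes of the deposited table. Members were chosen by gene symbol, as TRIM followed by a number and optional suffix, after the Ensembl identifiers had been matched to an annotation. Of these, 60 lie outside a primate-expanded group and 10 lie in it (TRIM43, TRIM48, TRIM49, TRIM49B, TRIM49C, TRIM49D1, TRIM51, TRIM64B, TRIM64C and TRIM77). The primate-expanded group was selected on its rise with JQ1 in UPCI-SCC-090, so its values with JQ1 are given as a description with no test.

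A TRIM protein carries a RING domain, B-boxes and a coiled coil, followed by a C-terminal domain that selects the target. With ubiquitin-conjugating enzymes (E2), many members attach ubiquitin chains to sensors of viral nucleic acid or to their adaptors, and several are themselves induced by interferon. Other members repress transcription in the nucleus, bind microtubules or sit in internal membranes, and a set of young PRY-SPRY genes has multiplied in primates.

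The HPV-positive head and neck squamous carcinoma lines UPCI-SCC-090 and UM-SCC-47 were profiled in 12 RNA-seq libraries. Each line was treated for 72 h with 500 nM JQ1, an inhibitor of the BET bromodomain proteins, or with 0.1% DMSO as the control, with 3 libraries in each of the 4 groups. The design names 3 repeats per condition, each run on 2 lanes, and does not say whether they were separate cultures, so p-values may measure technical spread alone. Each result holds for these lines only, since every line is 1 model of the disease.

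The libraries held between 20349275 and 30788657 estimated counts each. The squamous markers (KRT5, KRT14, KRT17, EPCAM, CDH1 and TP63) summed to between 2057 and 2333 CPM with JQ1, against between 1617 and 2256 CPM with DMSO in UPCI-SCC-090, and to between 2720 and 3544 CPM with JQ1, against between 2316 and 2426 CPM with DMSO in UM-SCC-47. In UPCI-SCC-090 the basal keratin KRT14 averaged only 0.84 CPM with JQ1, against 1.25 CPM with DMSO, so the list rested there mainly on CDH1, EPCAM and TP63. The sum is read there as epithelial and does not by itself show squamous identity. The 8 immune cell markers summed to at most 45.3 CPM in any library, and CD3D and MS4A1 had no counts. Of the 8, 3 averaged at least 1 CPM in both UM-SCC-47 groups and in UPCI-SCC-090 with DMSO, and 1 in UPCI-SCC-090 with JQ1. The 5 fibroblast markers summed to at most 28.5 CPM (UPCI-SCC-090 with DMSO), and the 5 skeletal muscle markers to at most 56.8 CPM (UM-SCC-47 with JQ1). Libraries differed in how their counts followed GC content, by −0.73 to 0.66 log2 units per 10 points of GC. Within a group, the deviations of 48 members followed GC content too, with Pearson's r across members between −0.71 and 0.73 by library, given as a description since members of a library share its depth and base composition. In bulk RNA, fewer cells of a type and less RNA per cell cannot be told apart.

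The primate-expanded members were nearly silent in 3 of the 4 groups and were counted in UPCI-SCC-090 with JQ1. Levels are given as CPM, the count relative to library size after TMM scaling within a line. TRIM43, a PRY-SPRY member with near-identical copies on chromosome 2, had 16.5, 15.3 and 15.9 CPM in the 3 JQ1 libraries of UPCI-SCC-090, against 0.14, 0.086 and 0.097 CPM in its DMSO libraries. This was 1251 estimated counts with JQ1 and 9 with DMSO, a ratio of 145.9 after scaling (exact 95% interval 76.6 to 319.9, counting error only). Every JQ1 library stood far above every DMSO library, and the 3 JQ1 libraries lay close together. In UM-SCC-47, TRIM43 had 1 count in the 3 JQ1 libraries and 0 in the 3 DMSO libraries.

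**Figure D1:**
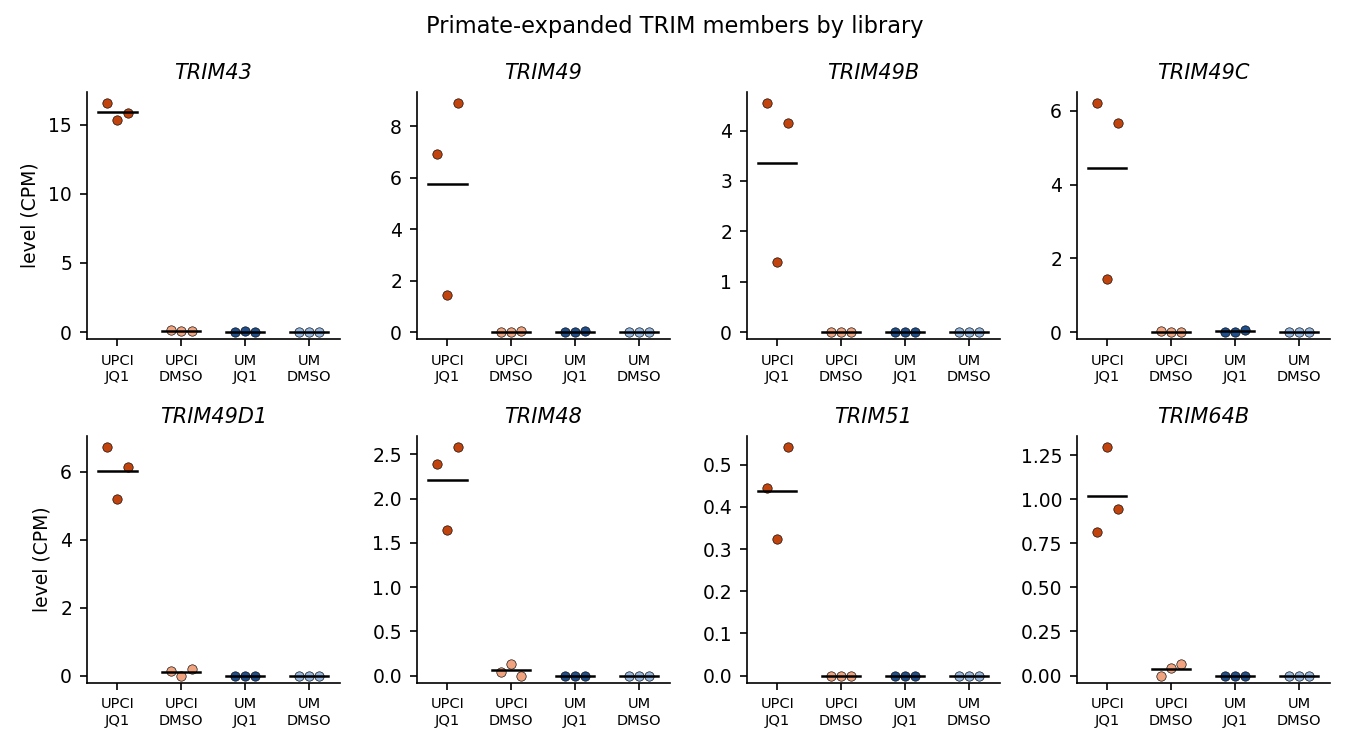
Level (CPM, linear axis) of 8 primate-expanded TRIM members in each library. Points are libraries in replicate order, horizontal lines are group means (n = 3), UPCI is UPCI-SCC-090 and UM is UM-SCC-47. Only the UPCI-SCC-090 libraries with JQ1 rise clear of 0, and JQ1 replicate 2 sits low for TRIM49, TRIM49B and TRIM49C.

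The TRIM49 group showed the same contrast between groups with more spread. Its 4 members in the table (TRIM49, TRIM49B, TRIM49C and TRIM49D1) together had 24.4, 9.46 and 24.8 CPM with JQ1, against 0.17, 0 and 0.23 CPM with DMSO in UPCI-SCC-090. They summed to 1556 counts with JQ1 and 12 with DMSO, a ratio of 136.1 (exact 95% interval 77.7 to 264.1, counting error only), while UM-SCC-47 had 2 counts with JQ1 and 0 with DMSO. JQ1 replicate 2 was the low library. There, TRIM49, TRIM49B and TRIM49C had 35, 34 and 35 counts, whereas TRIM49D1 had 128.

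The split of reads among these genes is uncertain. Of the distinct 31-base words in the annotated transcripts of TRIM49, 89.7% also occurred in another gene, mostly TRIM49C. The share was 90% for TRIM49C, 62.7% for TRIM49B and 78.9% for TRIM49D1, mostly shared with TRIM49D2. TRIM43 shared 83%, mostly with TRIM43B, which was not analysed here. TRIM64B shared 91.1%, mostly with TRIM64, also not analysed here.

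The smaller members had fewer reads. TRIM48 had 71, 41 and 63 counts with JQ1, against 1, 3 and 0 counts with DMSO in UPCI-SCC-090, and TRIM64B had 24, 32 and 23 counts with JQ1, against 0, 1 and 2 counts with DMSO. TRIM51 had 13, 8 and 13 counts with JQ1 and none with DMSO, 11.9-fold higher with a floor of 3 counts over the DMSO group. By the same floor TRIM49B, with 269 counts with JQ1 and none with DMSO, was 94.2-fold higher. Both folds take the JQ1 count as exact and leave out its counting error. For these 4 genes no JQ1 library overlapped a DMSO library, as for 44.6% of all genes tested in UPCI-SCC-090. TRIM64C and TRIM77 had no counts in any of the 12 libraries, which allows up to 3 counts per library.

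Promoter sequence of the group, which was selected on its rise, was examined because the embryonic factor DUX4 is known to drive genes of this kind in the cleavage-stage embryo. RefSeq promoter windows (GRCh38.p14, 250 bases before to 50 after each start) existed for 9 of the 10 members, all but TRIM43. The 11-base DUX4 motif was present in 4 of them, on the strand of the gene. Across all RefSeq promoter windows of this length, 63 of 35116 held it on either strand (0.179%), and 0 of the 66 windows of members outside the group did. The 90-base stretches around it are shown 5′ to 3′ with the motif in capitals, so that the letters around it can be compared between the members.
TRIM48: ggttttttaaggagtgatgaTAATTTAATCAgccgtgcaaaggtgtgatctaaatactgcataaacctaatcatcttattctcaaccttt
TRIM49D1: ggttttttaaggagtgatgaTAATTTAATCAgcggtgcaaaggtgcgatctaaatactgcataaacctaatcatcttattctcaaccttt
TRIM49B: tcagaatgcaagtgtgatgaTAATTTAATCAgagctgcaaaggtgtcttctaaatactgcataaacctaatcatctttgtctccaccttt
TRIM51: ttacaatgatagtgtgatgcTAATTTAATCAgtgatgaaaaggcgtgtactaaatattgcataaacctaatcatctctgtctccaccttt
They lie on chromosome 11 at chr11:55261989-55262078 (plus strand, TRIM48), chr11:89920533-89920622 (minus strand, TRIM49D1), chr11:49028654-49028743 (plus strand, TRIM49B) and chr11:55883058-55883147 (plus strand, TRIM51). The motif starts 146, 155, 149 and 219 bases before the annotated start of TRIM48, TRIM49D1, TRIM49B and TRIM51. TRIM49, TRIM49C, TRIM64B, TRIM64C and TRIM77 had a window without these letters, and TRIM49D1 had a further window without them. The 4 windows with the motif belong to related gene copies and are not independent, so their share beside that of all windows is a description only. A match is a description of the letters, and binding was not measured.

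Other genes of the cleavage-stage program were counted in the same libraries. DUX4 itself had under 1 estimated count in each UPCI-SCC-090 library. Of 21 such genes in the table, 3 passed the filter in UPCI-SCC-090, of which 1 was called higher (PRAMEF12), 1 lower (RFPL1) and 1 was not called (DUXA). PRAMEF12 passed it only through the JQ1 libraries and RFPL1 only through the DMSO libraries. The filter thus fixed the direction of both calls, and they are given as a description. PRAMEF12, a PRAME-family gene, had 41, 40 and 41 counts with JQ1, against 0, 0 and 1 with DMSO in UPCI-SCC-090, and PRAMEF1 had 29, 8 and 21 counts with JQ1, against 0, 0 and 1 with DMSO. MBD3L2, a methyl-CpG-binding-like gene, had 23, 15 and 9 counts with JQ1, against 0, 1 and 0 with DMSO. RFPL1, of the RING-finger-like RFPL family, went the other way, with 5, 7 and 9 counts with JQ1, against 36, 29 and 21 with DMSO in UPCI-SCC-090. The homeobox gene DUXA was present in both groups, at 3.83, 1.70 and 6.71 CPM with JQ1, against 3.57, 0.94 and 1.57 CPM with DMSO (log2 fold change 1.00 ± 0.67, SE, adjusted p = 0.322 by edgeR's quasi-likelihood test). ZSCAN4, a marker of this stage, had at most 4 counts in any UPCI-SCC-090 library. In UM-SCC-47, 1 gene of the list was tested, CCNA1, and it was called lower. It had 3, 0 and 2 counts with JQ1, against 21, 18 and 19 with DMSO, and passed the filter only through the DMSO libraries. Over the list, the counts summed there to 13, 8 and 10 with JQ1, against 39, 46 and 52 with DMSO. The sums in UPCI-SCC-090 were 265, 147 and 288 with JQ1, against 158, 70 and 85 with DMSO, and the groups overlapped. The list was chosen with results of these data known, and what drove the TRIM reads was not tested.

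Outside the primate-expanded group, more TRIM genes were called lower with JQ1 than higher in both lines, as over all genes. A gene counted as called where edgeR's quasi-likelihood test, adjusted by Benjamini-Hochberg over all genes, gave p under 0.05. In UPCI-SCC-090, 42 of the 60 members passed the filter on low counts, 4 were called higher (9.52%, beside 7.67% of all 13150 genes) and 11 lower (26.2%, beside 20.4%). The median log2 fold change of the members was −0.41, beside −0.14 for all genes. In UM-SCC-47, 46 members were tested, 8 were called higher (17.4%, beside 16.1% of 13440 genes) and 12 lower (26.1%, beside 25.5%), with a median of −0.01, beside −0.03 for all genes. The shares were near those of all genes in both lines. JQ1 and DMSO libraries did not overlap for 19 of the 42 members in UPCI-SCC-090, beside 44.6% of all genes. In UM-SCC-47 they did not overlap for 27 of the 46 members, beside 55.3% of all genes. Leaving out 1 library changed the counts to between 0 and 4 higher and between 4 and 9 lower in UPCI-SCC-090, both lowest without JQ1 replicate 1. Without DMSO replicate 1, 2 or 3 it gave 2, 1 and 1 higher and 7, 5 and 5 lower, and without JQ1 replicate 3 it gave 2 higher and 5 lower. In UM-SCC-47 the higher calls were 2 without DMSO replicate 1 and 4 without DMSO replicate 2, DMSO replicate 3 or JQ1 replicate 1.

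The balance of directions depended on the scaling. With RLE size factors in place of TMM, the median log2 fold change of all genes was 0.14 in UPCI-SCC-090 and 0.12 in UM-SCC-47, and with library size only it was −0.38 in UPCI-SCC-090 and −0.28 in UM-SCC-47. The share of calls over all genes that were higher was 27.4% with TMM, 42.3% with RLE and 17.1% with library size only in UPCI-SCC-090, and 38.7% with TMM, 48.0% with RLE and 24.1% with library size only in UM-SCC-47. TRIM7, TRIM14, TRIM17 and TRIM56 were called lower in both lines under each of the 18 alternatives tried per line, scaling and left-out libraries included. In UPCI-SCC-090, TRIM17 and TRIM56 passed the filter only through the DMSO libraries, which fixed the direction of their calls there.

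The same 7 members were called lower in both lines (TRIM7, TRIM14, TRIM17, TRIM46, TRIM47, TRIM56 and TRIM65), and TRIM4 and TRIM13 were called higher in both. No member was called in opposite directions. A further 4 were called lower in UPCI-SCC-090 alone (TRIM8, TRIM21, TRIM66 and TRIM69) and 5 in UM-SCC-47 alone (TRIM31, TRIM41, TRIM45, TRIM73 and TRIM74), of which TRIM31 was not tested in UPCI-SCC-090. Higher in UPCI-SCC-090 alone were TRIM9 and TRIM29, of which TRIM9 was not tested in UM-SCC-47. Higher in UM-SCC-47 alone were TRIM3, TRIM5, TRIM35, TRIM36, TRIM58 and TRIM62, of which TRIM58 was not tested in UPCI-SCC-090. The remaining members comprised 18 that were tested and not called in both lines, TRIM6, TRIM22 and TRIM34, which were tested and not called in UM-SCC-47 alone, and 13 that did not pass the filter in either line. A call in a single line is not a difference between lines, which is tested further on.

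**Figure D2:**
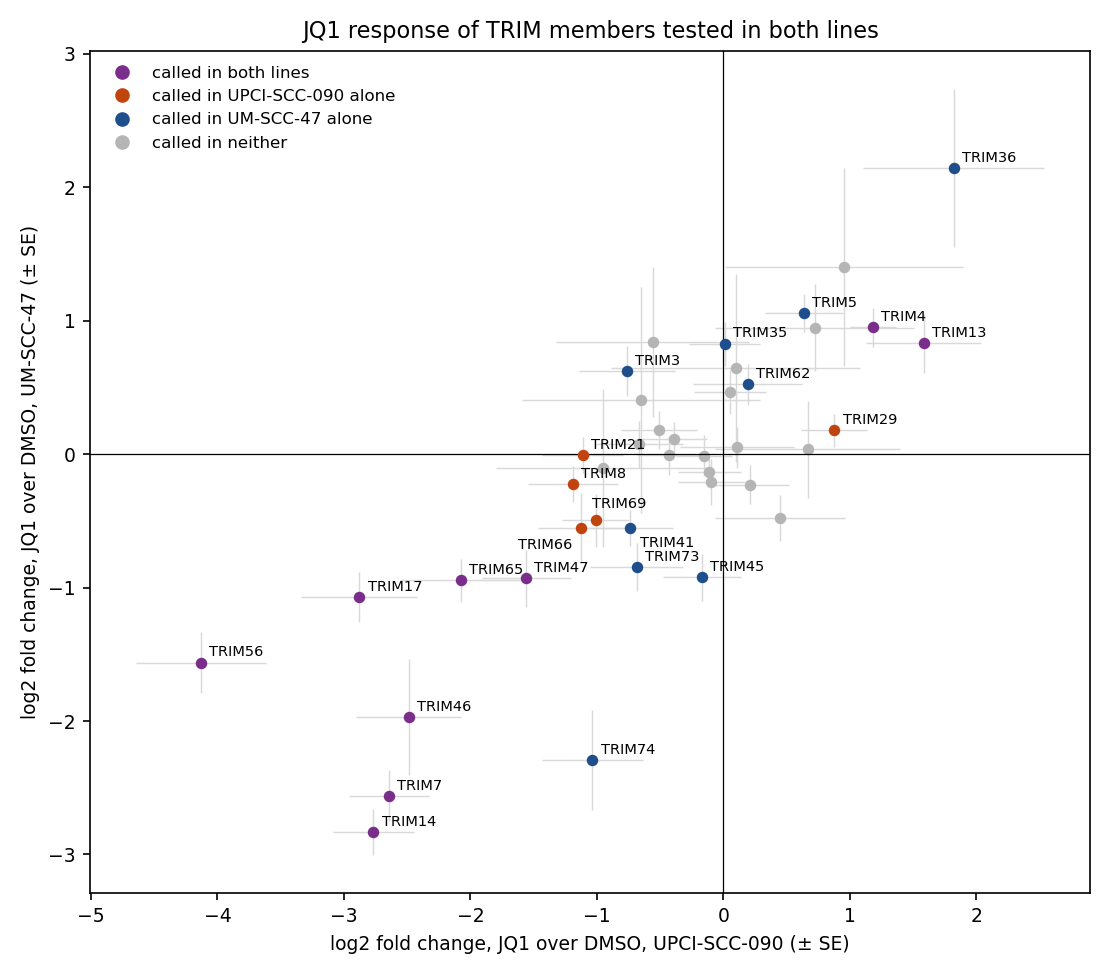
Log2 fold change of JQ1 over DMSO in UPCI-SCC-090 (x axis) and in UM-SCC-47 (y axis) for the 41 TRIM members tested in both lines, with bars of 1 SE. The 7 members called lower in both lines lie in the lower left quadrant and the 2 called higher in both, TRIM4 and TRIM13, in the upper right.

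TRIM14, an adaptor of the mitochondrial antiviral protein MAVS that lacks a RING domain, fell to 4.04, 4.36 and 2.79 CPM with JQ1, against 23.0, 29.2 and 24.2 CPM with DMSO in UPCI-SCC-090 (log2 fold change −2.77 ± 0.32, SE, adjusted p = 0.00379). In UM-SCC-47 it fell to 3.67, 2.98 and 3.47 CPM with JQ1, against 24.3, 24.0 and 23.9 CPM with DMSO (−2.83 ± 0.17, adjusted p = 0.000161). With DMSO, TRIM14 was not called between the lines (UPCI-SCC-090 minus UM-SCC-47, −0.07 ± 0.20, adjusted p = 0.795 by edgeR's quasi-likelihood test). The difference of the responses, UPCI-SCC-090 minus UM-SCC-47, was 0.18 ± 0.40 on the log2 scale (adjusted p = 0.88).

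TRIM56, a ligase linked to cytosolic DNA sensing, had 0.60, 0.55 and 0.25 CPM with JQ1, against 10.3, 9.91 and 5.10 CPM with DMSO in UPCI-SCC-090 (−4.13 ± 0.51, adjusted p = 0.00413). It had 6.20, 3.78 and 5.45 CPM with JQ1, against 16.4, 14.7 and 14.5 CPM with DMSO in UM-SCC-47 (−1.56 ± 0.23, adjusted p = 0.00264). The groups did not overlap in either line, and in UPCI-SCC-090 TRIM56 passed the filter only through the DMSO libraries. The fall was larger in UPCI-SCC-090, by −2.44 ± 0.57 (adjusted p = 0.0265 for the interaction). This call was lost without any 1 of UM-SCC-47 DMSO replicates 1, 2 and 3, UM-SCC-47 JQ1 replicate 1 and UPCI-SCC-090 DMSO replicate 2, with adjusted p between 0.0583 and 0.0798.

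TRIM65, which modifies the RNA sensor MDA5, fell to 12.1, 23.0 and 7.16 CPM with JQ1, against 46.7, 73.3 and 58.7 CPM with DMSO in UPCI-SCC-090 (−2.08 ± 0.48, adjusted p = 0.0204). In UM-SCC-47 it fell to 14.1, 13.2 and 13.0 CPM with JQ1, against 23.7, 29.9 and 23.8 CPM with DMSO (−0.95 ± 0.16, adjusted p = 0.00479). JQ1 replicate 2 was the highest of the JQ1 libraries in UPCI-SCC-090, and it still lay below each DMSO library. The call in UPCI-SCC-090 was lost in 6 of 18 alternatives, and in UM-SCC-47 in 2 of 18.

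Of the 13 antiviral members, 5 of 10 tested were called lower and 0 higher in UPCI-SCC-090 (50% lower, beside 20.4% of all genes, median −0.70), and 3 of 13 lower and 1 higher in UM-SCC-47 (23.1% lower, beside 25.5% of all genes, median −0.23). TRIM56 was among the 5 in UPCI-SCC-090, where the filter fixed its direction, so the share is a description. TRIM21, the cytosolic antibody receptor, had 7.12, 7.62 and 5.06 CPM with JQ1, against 11.3, 16.9 and 14.6 CPM with DMSO in UPCI-SCC-090 (−1.11 ± 0.32, adjusted p = 0.0434). Its level in UM-SCC-47 averaged 37.4 ± 3.7 CPM with JQ1, against 37.6 ± 1.3 CPM with DMSO (SD, n = 3 each, adjusted p = 0.967). The groups of UM-SCC-47 overlapped, and the interaction did not pass the threshold (−0.99 ± 0.40, adjusted p = 0.185). With a correction for the GC trend of each library the interaction passed it (−0.99, adjusted p = 0.0119, and adjusted p = 0.0363 with the replicate block as well), while the call in UPCI-SCC-090 was lost in 11 of 18 alternatives. TRIM69, which restricts some RNA viruses, fell by 1.01 ± 0.27 in UPCI-SCC-090 (adjusted p = 0.0323) and had −0.50 ± 0.20 in UM-SCC-47 (adjusted p = 0.0856). The TRIM69 call in UPCI-SCC-090 was lost in 13 of 18 alternatives.

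TRIM5, the factor that restricts retroviral capsids, was the antiviral member called higher. It had 137, 163 and 146 CPM with JQ1, against 74.4, 61.1 and 77.9 CPM with DMSO in UM-SCC-47 (1.06 ± 0.14, adjusted p = 0.00188). In UPCI-SCC-090 it had 5.49, 3.97 and 5.94 CPM with JQ1, against 3.85, 2.82 and 3.23 CPM with DMSO (0.63 ± 0.31, adjusted p = 0.179). The JQ1 libraries lay above the DMSO libraries in both lines, at a far lower level in UPCI-SCC-090.

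TRIM25, the ligase that modifies the RNA sensor RIG-I, was not called in either line. It had 110.1, 159 and 106 CPM with JQ1, against 112, 157 and 136 CPM with DMSO in UPCI-SCC-090 (−0.11 ± 0.25, adjusted p = 0.795). In UM-SCC-47 it had 226, 210.3 and 209 CPM with JQ1, against 232, 252 and 225 CPM with DMSO (−0.13 ± 0.10, adjusted p = 0.341). TRIM22, an interferon-induced neighbour of TRIM5, averaged 93.1 ± 12 CPM with JQ1, against 87.2 ± 18 CPM with DMSO in UM-SCC-47 (SD, n = 3 each, adjusted p = 0.721). In UPCI-SCC-090 it was under 0.4 CPM in all 6 libraries.

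The sensors and adaptors that antiviral members act on were counted in the same libraries. Among 10 sensing and adaptor genes in the table, 3 were called lower in each line and 0 higher, of 9 tested in UPCI-SCC-090 and 10 in UM-SCC-47, beside 20.4% and 25.5% of all genes called lower. They were the DNA sensor CGAS, the adaptor MAVS and the ligase TRAF3. CGAS averaged 3.67 ± 1.1 CPM with JQ1, against 29.1 ± 7.2 CPM with DMSO in UPCI-SCC-090 (−2.98 ± 0.38, adjusted p = 0.0042), and 3.57 ± 0.66 CPM with JQ1, against 21.2 ± 1.7 CPM with DMSO in UM-SCC-47 (−2.57 ± 0.21, adjusted p = 0.000348), SD and n = 3 each. MAVS fell by 2.09 ± 0.38 in UPCI-SCC-090 (adjusted p = 0.00965) and by 1.19 ± 0.15 in UM-SCC-47 (adjusted p = 0.00134). Of 18 interferon-stimulated genes, 3 were called lower and 1 higher of 11 tested in UPCI-SCC-090 (27.3% lower), and 9 lower and 2 higher of 18 tested in UM-SCC-47 (50% lower).

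Among the E2 enzymes, UBE2D4 was called higher in both lines, the only E2 of 11 so called in UPCI-SCC-090. It averaged 64.7 ± 6.9 CPM with JQ1, against 13.8 ± 1.3 CPM with DMSO in UPCI-SCC-090 (2.22 ± 0.24, adjusted p = 0.0037), and 76.5 ± 17.7 CPM with JQ1, against 19.3 ± 1.6 CPM with DMSO in UM-SCC-47 (1.99 ± 0.20, adjusted p = 0.000712), SD and n = 3 each. In UM-SCC-47, UBE2N was also called higher (0.70 ± 0.19, adjusted p = 0.0286) and UBE2E3 lower (−0.82 ± 0.15, adjusted p = 0.0056). Of the TRIM relatives under other names, 1 was called higher and 3 lower of 8 tested in UPCI-SCC-090, and 1 higher and 4 lower of 9 in UM-SCC-47. Beside these and the E2 counts, 7.67% of all genes were called higher and 20.4% lower in UPCI-SCC-090. In UM-SCC-47 the shares of all genes were 16.1% higher and 25.5% lower. PML, a relative that builds nuclear bodies, was called lower in both lines, by −2.04 ± 0.38 in UPCI-SCC-090 (adjusted p = 0.0099) and −1.06 ± 0.12 in UM-SCC-47 (adjusted p = 0.00118).

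**Figure D3:**
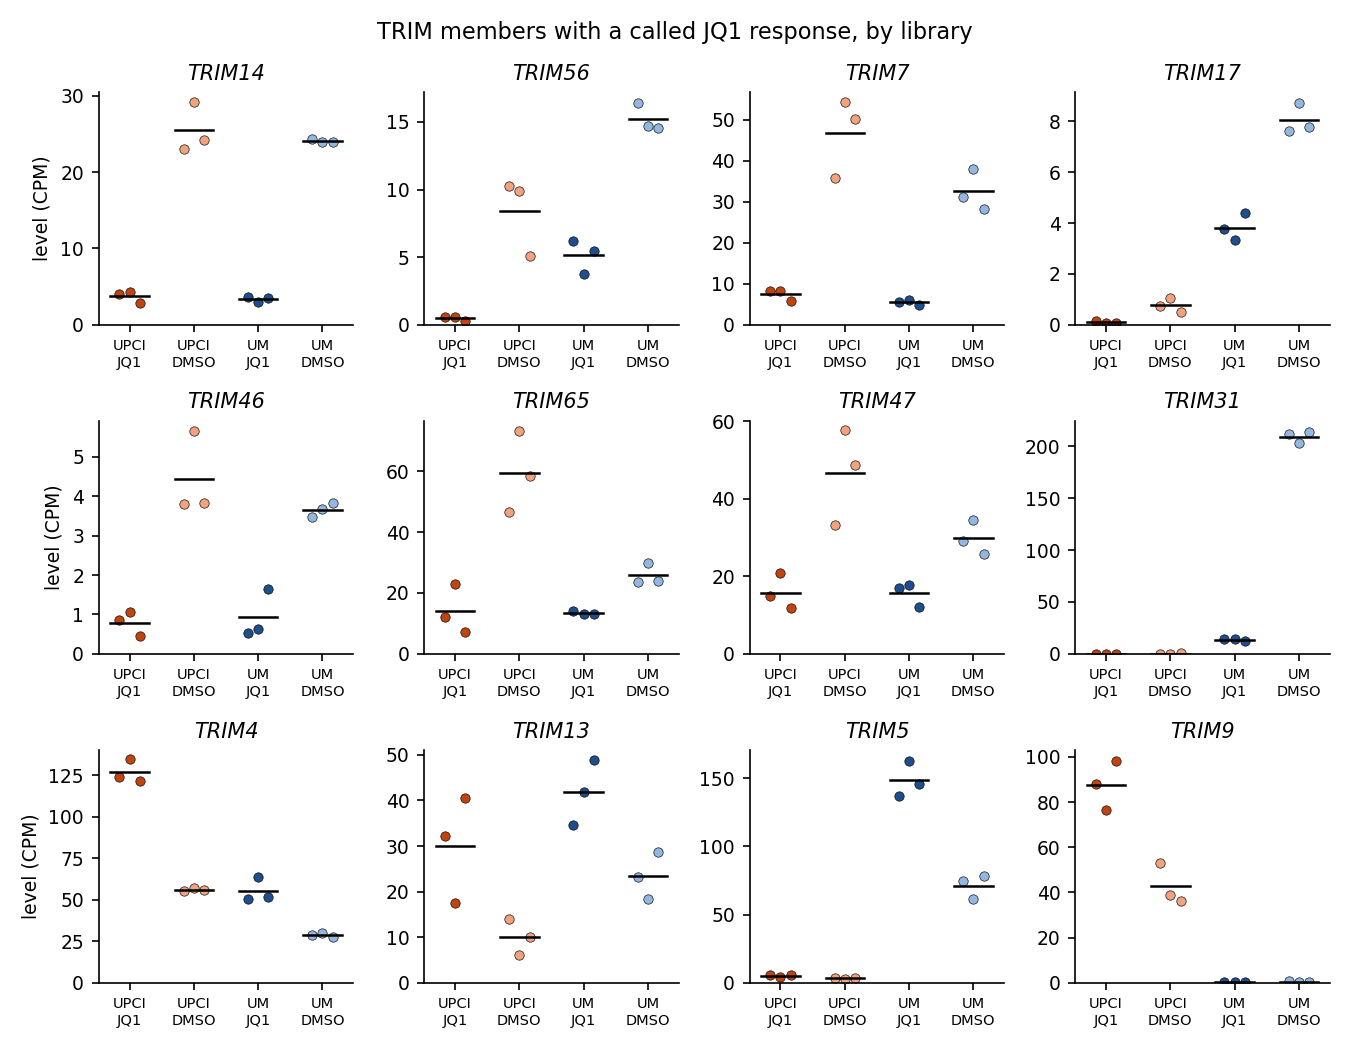
Level (CPM, linear axis from 0) of 12 TRIM members in each library. Points are libraries in replicate order and horizontal lines are group means (n = 3). TRIM14, TRIM56, TRIM7, TRIM17, TRIM46, TRIM65 and TRIM47 lie lower with JQ1 in both lines, TRIM4 and TRIM13 higher in both, and TRIM31 and TRIM9 are each expressed above 1 CPM in a single line.

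TRIM31, a ligase best known from intestinal epithelium (chromosome 6, 30070674 to 30080867, minus strand, GRCh37), fell most among the called members of UM-SCC-47. It had 14.0, 14.4 and 12.8 CPM with JQ1, against 212, 203 and 214 CPM with DMSO (−3.93 ± 0.12, adjusted p = 5.54e-05). The replicates within each group were tight and far apart between groups. In UPCI-SCC-090 it was at most 0.034 CPM with JQ1 and at most 0.29 CPM with DMSO, too low to test.

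TRIM29, an epithelial member that is abundant in squamous tissue, had 366, 556 and 351 CPM with JQ1, against 187, 276 and 231 CPM with DMSO in UPCI-SCC-090 (0.88 ± 0.26, adjusted p = 0.0484). In UM-SCC-47 it had 157, 143 and 133 CPM with JQ1, against 119, 142 and 121 CPM with DMSO (0.18 ± 0.13, adjusted p = 0.298). The UM-SCC-47 groups overlapped, and the interaction was 0.82 ± 0.38 (adjusted p = 0.256). The call in UPCI-SCC-090 was lost in 8 of 18 alternatives. With the GC correction TRIM29 was called higher in UM-SCC-47 too (0.50, adjusted p = 0.00528), and the interaction passed the threshold (1.02, adjusted p = 0.000792, and 1.02, adjusted p = 0.00812, with the replicate block as well). TRIM16, found in keratinocytes, was not called in either line, at 18.8 ± 4.4 CPM with JQ1, against 16.3 ± 2.7 CPM with DMSO in UPCI-SCC-090, and 187 ± 28 CPM with JQ1, against 219 ± 19 CPM with DMSO in UM-SCC-47 (SD, n = 3 each). Of its transcript words 51.9% occurred in another gene, mostly TRIM16L. TRIM15 and TRIM40 were at or under 0.128 CPM in every library.

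Squamous markers moved beside the epithelial members. In UM-SCC-47, KRT14 (1.12 ± 0.11, adjusted p = 0.000653) and KRT17 (2.33 ± 0.20, adjusted p = 0.000394) were called higher, and KRT5 (−1.83 ± 0.16, adjusted p = 0.000456) and TP63 (−3.02 ± 0.28, adjusted p = 0.000553) lower. In UPCI-SCC-090, CDH1 was called higher (0.79 ± 0.15, adjusted p = 0.0118) and the other 5 markers were not called. Their part in the TRIM results was not tested.

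Among the other PRY-SPRY members, TRIM7, which binds glycogenin, fell to 8.32, 8.24 and 5.86 CPM with JQ1, against 35.8, 54.3 and 50.2 CPM with DMSO in UPCI-SCC-090 (−2.64 ± 0.32, adjusted p = 0.00403). It fell to 5.50, 6.13 and 4.89 CPM with JQ1, against 31.3, 37.9 and 28.4 CPM with DMSO in UM-SCC-47 (−2.56 ± 0.19, adjusted p = 0.00028). The size of the fall was close in the lines (interaction 0.03 ± 0.40, adjusted p = 0.997). TRIM47 fell to 14.8, 20.9 and 11.7 CPM with JQ1, against 33.2, 57.8 and 48.8 CPM with DMSO in UPCI-SCC-090 (−1.56 ± 0.35, adjusted p = 0.0194), and to 16.9, 17.9 and 12.1 CPM with JQ1, against 29.1, 34.5 and 25.8 CPM with DMSO in UM-SCC-47 (−0.93 ± 0.21, adjusted p = 0.0136). TRIM47 has 66.4% GC, and with the GC correction the change was −0.45 in UPCI-SCC-090 (adjusted p = 0.0313) and −0.48 in UM-SCC-47 (adjusted p = 0.0197). The call was lost in 9 of 18 alternatives in UPCI-SCC-090, among them the replicate block with GC correction (adjusted p = 0.0656), and in 4 of 18 in UM-SCC-47.

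TRIM17, studied in neuronal cell death, fell to 0.14, 0.081 and 0.082 CPM with JQ1, against 0.75, 1.07 and 0.52 CPM with DMSO in UPCI-SCC-090 (−2.88 ± 0.46, adjusted p = 0.00627). In UM-SCC-47 it fell to 3.76, 3.32 and 4.39 CPM with JQ1, against 7.63, 8.72 and 7.77 CPM with DMSO (−1.07 ± 0.19, adjusted p = 0.00492). In UPCI-SCC-090 TRIM17 had 4, 2 and 2 counts with JQ1 and passed the filter only through the DMSO libraries. The difference of its responses missed the threshold (−1.72 ± 0.49, adjusted p = 0.0634). TRIM46, which bundles microtubules in axons, fell to 0.85, 1.05 and 0.45 CPM with JQ1, against 3.80, 5.65 and 3.83 CPM with DMSO in UPCI-SCC-090 (−2.49 ± 0.41, adjusted p = 0.00703), and to 0.53, 0.63 and 1.65 CPM with JQ1, against 3.47, 3.67 and 3.83 CPM with DMSO in UM-SCC-47 (−1.97 ± 0.44, adjusted p = 0.0126). With the GC correction the change of TRIM46 in UPCI-SCC-090 was −1.60 (adjusted p = 0.00236).

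TRIM4, a ligase also linked to RIG-I, rose in both lines. It had 124, 135 and 122 CPM with JQ1, against 55.4, 56.8 and 55.7 CPM with DMSO in UPCI-SCC-090 (1.18 ± 0.18, adjusted p = 0.00574), and 50.2, 64.0 and 51.8 CPM with JQ1, against 28.7, 29.7 and 27.5 CPM with DMSO in UM-SCC-47 (0.95 ± 0.15, adjusted p = 0.00307). All JQ1 libraries lay well above all DMSO libraries of their line. TRIM13, a ligase anchored in the endoplasmic reticulum, had 32.2, 17.5 and 40.5 CPM with JQ1, against 13.9, 6.15 and 10.0 CPM with DMSO in UPCI-SCC-090 (1.58 ± 0.46, adjusted p = 0.0436), and 34.5, 41.8 and 48.9 CPM with JQ1, against 23.1, 18.4 and 28.8 CPM with DMSO in UM-SCC-47 (0.83 ± 0.22, adjusted p = 0.0245). The TRIM13 call was lost in 7 of 18 alternatives in each line, in UM-SCC-47 with the GC correction (adjusted p = 0.0637) and with the replicate block and GC correction (adjusted p = 0.112) among them.

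The other calls were smaller or rested on low levels. TRIM74, which shares 89.2% of its transcript words with other genes, fell to 0.33, 0.38 and 0.14 CPM with JQ1, against 1.12, 1.73 and 1.62 CPM with DMSO in UM-SCC-47 (−2.29 ± 0.38, adjusted p = 0.00402). There it passed the filter only through the DMSO libraries. In UM-SCC-47 the log2 fold change was −0.55 for TRIM41, −0.92 for TRIM45 and −0.85 for TRIM73, and it was 0.62 for TRIM3, 0.83 for TRIM35, 0.88 for TRIM58 and 0.52 for TRIM62. Among the last 4, TRIM35 had 40.2, 45.1 and 34.7 CPM with JQ1, against 20.9, 25.4 and 21.2 CPM with DMSO. The UM-SCC-47 calls of TRIM41, TRIM3 and TRIM62 were lost in 9, 9 and 10 of 18 alternatives. TRIM8, a regulator of cytokine signaling, fell to 20.5, 28.0 and 14.2 CPM with JQ1, against 36.6, 60.0 and 46.6 CPM with DMSO in UPCI-SCC-090 (−1.19 ± 0.35, adjusted p = 0.0479). The call was lost in 12 of 18 alternatives. TRIM8 has 63.7% GC, and its change was −0.24 with the GC correction (adjusted p = 0.202) and −0.25 with the replicate block and GC correction (adjusted p = 0.244).

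By list, where lists mix domain and function, those listed as other PRY-SPRY members had 1 higher and 3 lower of 11 tested in UPCI-SCC-090. In UM-SCC-47 they had 4 higher and 4 lower of 12. Members without a listed C-terminal domain had 0 higher and 1 lower of 6 in UPCI-SCC-090, and 0 higher and 3 lower of 6 in UM-SCC-47. NHL-repeat members had 0 calls of 3 in UPCI-SCC-090 and 1 higher of 3 in UM-SCC-47 (TRIM3), and membrane-anchored and MATH members had 1 higher of 3 in each line (TRIM13). Microtubule-binding and sarcomere members had 1 higher and 1 lower of 3 in UPCI-SCC-090, and 1 higher and 1 lower of 2 in UM-SCC-47. For comparison, 7.67% of all genes were called higher and 20.4% lower in UPCI-SCC-090, and 16.1% higher and 25.5% lower in UM-SCC-47. Among the lists of this paragraph, TRIM13 and TRIM46 account for the calls that both lines shared outside the list of other PRY-SPRY members.

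TRIM36, a microtubule-associated ligase, rose in UM-SCC-47 to 5.65, 2.69 and 13.5 CPM with JQ1, against 1.31, 1.58 and 2.06 CPM with DMSO (2.14 ± 0.59, adjusted p = 0.0284). JQ1 replicate 3, the library with the steepest fall of counts with GC content in this line, was by far the highest. In UPCI-SCC-090 TRIM36 had 1.82 ± 0.72 (adjusted p = 0.108), and JQ1 replicate 3 was again the highest. TRIM36 has 38.6% GC, and with the GC correction its rise in UM-SCC-47 was 1.81 (adjusted p = 0.00128).

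TRIM9, a neuronal ligase that acts in netrin signaling, was expressed in UPCI-SCC-090 and rose to 87.9, 76.4 and 98.2 CPM with JQ1, against 53.0, 39.1 and 36.2 CPM with DMSO (1.03 ± 0.25, adjusted p = 0.0234). In UM-SCC-47 it had 5, 4 and 4 estimated counts with JQ1, against 19, 13 and 7 with DMSO, below the filter for that line. The fitted interaction was 2.34 ± 0.40 (adjusted p = 0.00605), but TRIM9 entered that fit only through UPCI-SCC-090, so no difference of its response between the lines is read from it. Its call in UPCI-SCC-090 was lost in 6 of 18 alternatives. Of the 48 members in the interaction fit, 1 was called higher (TRIM9, 2.08%, beside 2.93% of 14396 genes) and 1 lower (TRIM56, 2.08%, beside 3.63%), shares below those of all genes. The median difference was −0.31 over the members and −0.03 over all genes.

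The nuclear co-repressors TRIM24, TRIM28, TRIM33 and TRIM66 share a bromodomain of another class than that of the BET proteins. TRIM66 fell to 1.90, 2.76 and 1.89 CPM with JQ1, against 5.61, 5.23 and 3.52 CPM with DMSO in UPCI-SCC-090 (−1.13 ± 0.34, adjusted p = 0.0479), and had −0.56 ± 0.26 in UM-SCC-47 (adjusted p = 0.137). TRIM28, the partner of KRAB zinc finger repressors, was the most abundant TRIM per kb of transcript in all 4 groups and was not called. It averaged 471 ± 143 CPM with JQ1, against 669.6 ± 175 CPM with DMSO in UPCI-SCC-090 (−0.51 ± 0.30, adjusted p = 0.261), and 419 ± 41.0 CPM with JQ1, against 370.3 ± 48.7 CPM with DMSO in UM-SCC-47 (0.18 ± 0.14, adjusted p = 0.358), SD and n = 3 each. With a correction for the GC trend of each library, TRIM28, at 64.2% GC, was higher with JQ1 in both lines, by 0.48 in UPCI-SCC-090 (adjusted p = 0.0194) and 0.60 in UM-SCC-47 (adjusted p = 0.00272), so its direction in UPCI-SCC-090 turned with this correction.

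TRIM33, which controls SMAD signaling, varied more between replicates than between groups. It had 21.5, 7.37 and 82.2 CPM with JQ1, against 61.8, 8.86 and 33.2 CPM with DMSO in UPCI-SCC-090 (adjusted p = 0.958). TRIM24 behaved alike, with 13.6, 5.63 and 34.5 CPM with JQ1, against 45.2, 11.3 and 22.6 CPM with DMSO. Replicate 2 was lowest and the groups overlapped in both cases. TRIM2, TRIM23, TRIM37 and TRIM59 also spread widely and overlapped between groups in UPCI-SCC-090, and none of the 6 was called there. These genes have 34.4% to 44.2% GC, and JQ1 replicate 3 and DMSO replicate 2 of UPCI-SCC-090 had the steepest GC trends of their groups. With the GC correction TRIM59 was called lower in UPCI-SCC-090 (−1.26, adjusted p = 0.019), and so it was with the replicate block and GC correction (−1.27, adjusted p = 0.032). TRIM37, a ligase of the centrosome and peroxisome, had 57.0, 12.3 and 95.3 CPM with JQ1, against 53.9, 13.4 and 32.4 CPM with DMSO in UPCI-SCC-090 (0.72, adjusted p = 0.558). In UM-SCC-47 it had 84.3, 60.9 and 127 CPM with JQ1, against 47.9, 33.8 and 59.4 CPM with DMSO (0.95, adjusted p = 0.0571). There the JQ1 libraries lay above the DMSO libraries, and 9 of 18 alternatives called it higher, the GC correction among them (0.99, adjusted p = 0.00808).

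Before treatment the lines differed widely in their TRIM genes. With DMSO, 47 members were tested, 13 were called higher in UPCI-SCC-090 (27.7%, beside 22.7% of 14108 genes) and 17 lower (36.2%, beside 25.3%). The median log2 difference, UPCI-SCC-090 minus UM-SCC-47, was −0.14 over the members and −0.01 over all genes. TRIM6, TRIM22, TRIM31, TRIM34, TRIM36 and TRIM58 passed the filter only through UM-SCC-47, and TRIM9 only through UPCI-SCC-090. The filter thus fixed the direction of these calls, and their sizes rest on few counts in the other line. Of the 13 antiviral members 8 were called lower and 2 higher, with a median of −1.01. Of 18 interferon-stimulated genes, 17 were called lower in UPCI-SCC-090 and 0 higher, with a median of −5.99. Only 11 of the 18 passed the filter within UPCI-SCC-090. At least the others entered this comparison only through UM-SCC-47, so the filter fixed their direction, and the count and median are a description.

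The neighbouring antiviral genes TRIM6, TRIM34, TRIM5 and TRIM22 on chromosome 11 (5617339 to 5959849, GRCh37) were all called lower in UPCI-SCC-090. TRIM22 had 0.27, 0.074 and 0.36 CPM in UPCI-SCC-090 with DMSO, against 93.6, 67.0 and 101 CPM in UM-SCC-47 with DMSO (−8.56 ± 0.45, adjusted p = 1.05e-05). TRIM6 had 0.071, 0 and 0.19 CPM in UPCI-SCC-090, against 48.6, 42.0 and 49.7 CPM in UM-SCC-47 (−9.01 ± 0.62, adjusted p = 2.64e-05). No library of either line came near the other line.

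TRIM34, a close relative of TRIM5, had 0.18, 0.17 and 0.26 CPM in UPCI-SCC-090, against 10.8, 9.42 and 12.8 CPM in UM-SCC-47 (−5.86 ± 0.32, adjusted p = 1.16e-05) and TRIM5 differed by −4.57 ± 0.23 (adjusted p = 9.7e-06). Unlike its neighbours, TRIM5 kept 2.82 to 3.85 CPM in UPCI-SCC-090 with DMSO. TRIM5 and TRIM22 overlap on opposite strands in the annotation, TRIM34 shares 87.3% of its transcript words with other genes, mostly the readthrough gene TRIM6-TRIM34, and the sources used here do not say whether the counting used strand.

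**Figure D4:**
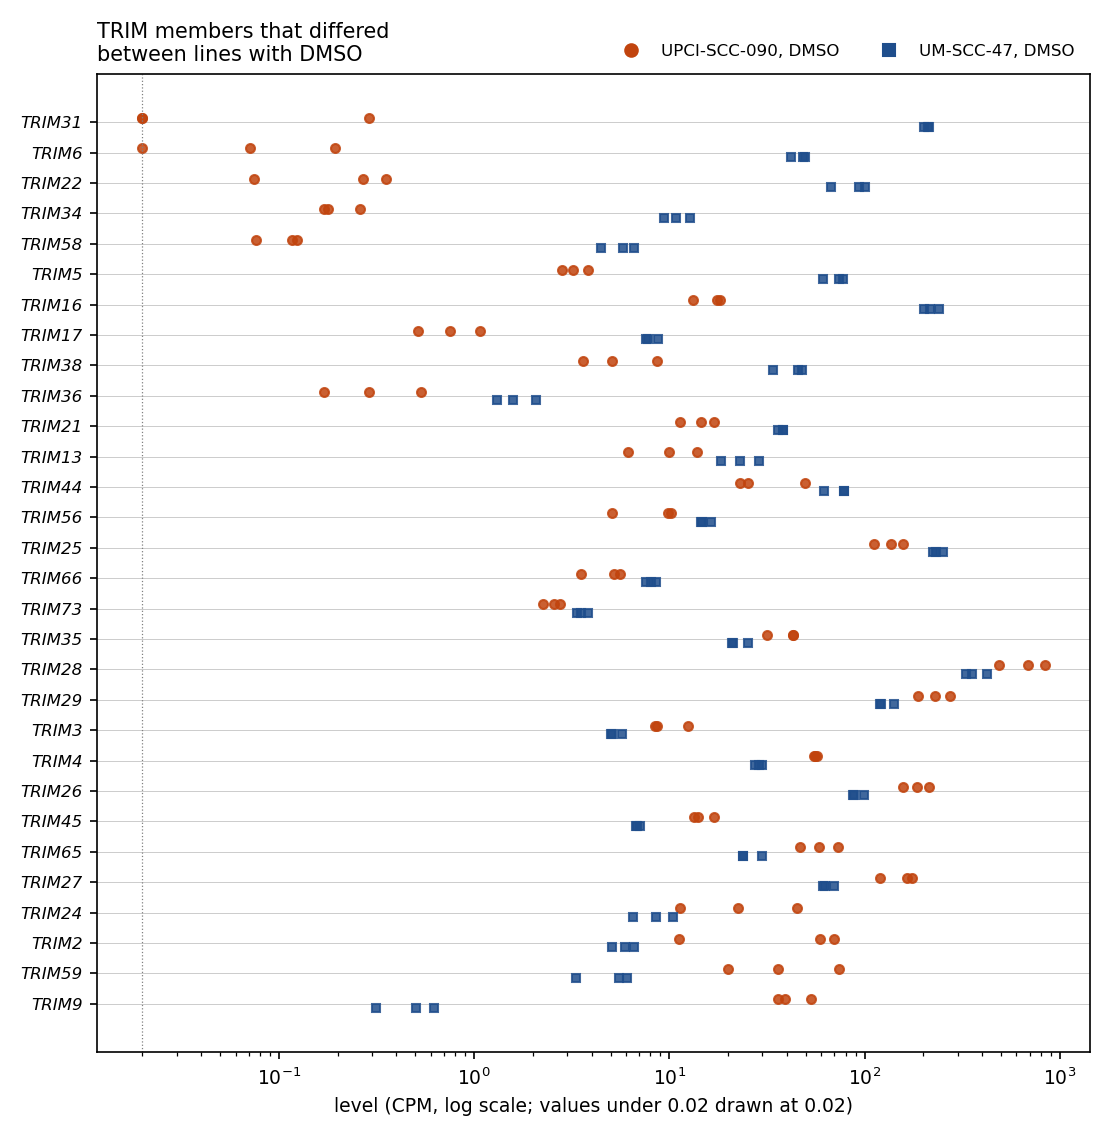
Level (CPM, log axis, values under 0.02 drawn at 0.02) with DMSO of the 30 TRIM members that differed between the lines, ordered by log2 difference from the lowest (TRIM31) to the highest (TRIM9) in UPCI-SCC-090. Circles are the 3 UPCI-SCC-090 libraries and squares the 3 UM-SCC-47 libraries. CPM was scaled within each line, so the lines do not share a common scale.

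The epithelial TRIM31 showed the largest fitted difference of all members tested, with 0, 0 and 0.29 CPM in UPCI-SCC-090 with DMSO, against 212, 203 and 214 CPM in UM-SCC-47 with DMSO (−11.01 ± 0.77, adjusted p = 2.7e-05). Its size rests on 0, 0 and 9 counts in UPCI-SCC-090. TRIM16 was also lower in UPCI-SCC-090 (−3.90 ± 0.21, adjusted p = 1.1e-05), as were TRIM58, an erythroid ligase (−5.78 ± 0.36, adjusted p = 1.74e-05), and TRIM17 (−3.53 ± 0.32, adjusted p = 9.6e-05). The filter fixed the direction of TRIM31 and TRIM58, which passed it only through UM-SCC-47. TRIM29 was higher, at 187, 276 and 231 CPM in UPCI-SCC-090, against 119, 142 and 121 CPM in UM-SCC-47 (0.71 ± 0.19, adjusted p = 0.0179). The epithelial members thus did not share a direction.

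TRIM9 led the members that were higher in UPCI-SCC-090, at 53.0, 39.1 and 36.2 CPM with DMSO, against 0.62, 0.50 and 0.31 CPM in UM-SCC-47 with DMSO (6.29 ± 0.37, adjusted p = 1.36e-05). TRIM59, a membrane-anchored member, had 74.0, 20.1 and 36.0 CPM in UPCI-SCC-090, against 5.54, 3.31 and 6.08 CPM in UM-SCC-47 (2.98 ± 0.52, adjusted p = 0.0024). TRIM2, an NHL-repeat ligase of neurons, had 69.9, 11.2 and 59.4 CPM in UPCI-SCC-090, against 5.08, 5.94 and 6.60 CPM in UM-SCC-47 (2.86 ± 0.63, adjusted p = 0.00764). All 3 genes were apart in every library, as were 59.0% of all genes tested, although TRIM59 and TRIM2 spread widely within UPCI-SCC-090. TRIM24 (1.49 ± 0.49, adjusted p = 0.0391), TRIM27 (1.10 ± 0.20, adjusted p = 0.00268) and TRIM65 (1.05 ± 0.23, adjusted p = 0.00747) were the next largest.

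Per kb of transcript, the order of the members with DMSO differed between the lines below the first place. In UPCI-SCC-090 TRIM28 averaged 156 ± 41 CPM per kb, followed by TRIM26 at 42.3 ± 6.3, TRIM29 at 23.0 ± 4.4, TRIM27 at 19.2 ± 3.7 and TRIM32 at 18.0 ± 3.1 CPM per kb (SD, n = 3 each). The last 3 lie within their replicate spread. In UM-SCC-47 TRIM28 averaged 86.0 ± 11 CPM per kb, followed by TRIM31 at 59.5 ± 1.7, TRIM16 at 38.9 ± 3.4, TRIM32 at 21.8 ± 1.4 and TRIM26 at 21.0 ± 1.6 CPM per kb (SD, n = 3 each), of which the last 2 lie within their spread. Over all 70 members, 45 with JQ1 and 40 with DMSO averaged at least 1 CPM in UPCI-SCC-090, and 44 with JQ1 and 46 with DMSO in UM-SCC-47.

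The 13 members outside the primate-expanded group that were not tested in either line were TRIM10, TRIM15, TRIM40, TRIM42, TRIM50, TRIM54, TRIM55, TRIM60, TRIM61, TRIM63, TRIM67, TRIM71 and TRIM72. They include the muscle ligases TRIM54, TRIM55, TRIM63 and TRIM72 and the stem cell regulator TRIM71. TRIM61 reached the highest level among them, at 0.722 CPM in 1 UM-SCC-47 library with DMSO, and TRIM42 had no counts in any library. No statement on JQ1 is possible for these genes at this depth.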

How the data were processed

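RNA-seq of 12 libraries, 3 in each of 4 groups, gave between 20349275 and 30788657 estimated counts per library. The authors quantified reads with Salmon and deposited the estimated counts per gene, which were rounded here. Versions listed by the submitters' notes are 0.8.2 for Salmon and 1.28.0 for DESeq2, and the sources used here do not give the genome build behind the counts. Symbols, biotype, GC content and coordinates came from GENCODE lifted to GRCh37, which held 20015 of the 20738 identifiers and lacked 723. Members and gene lists were chosen with earlier results of these data known.

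Genes were filtered with filterByExpr (minimum count 10, minimum total 15), scaled by TMM and tested with edgeR 4.0.16 (R 4.3.3, limma 3.58.1) (quasi-likelihood) within each line, over both lines for the interaction, and between lines with DMSO. P-values were adjusted by Benjamini-Hochberg over all genes tested, with calls under 0.05. CPM levels (counts relative to library size) used TMM factors within a line. They are not on a common scale between lines, also where libraries of the lines were compared for overlap. Exact 95% intervals cover counting error only, and the floor for a count of 0 was 3. The biological coefficient of variation was 47.0% in UPCI-SCC-090 and 31.6% in UM-SCC-47. Alternatives changed the scaling, the filter, the tool (DESeq2 1.42.0), the threshold, GC correction, the replicate block, the libraries and the summing of near-identical members. The steps were tested on simulated data. Sequences came from RefSeq promoter windows (GRCh38.p14). Shared words are the 31-base words of annotated transcripts.

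The rule for values per library covered called members reaching 1 CPM, up to 10 per direction and line; the TRIM43 and TRIM49 groups; the members with the lowest p of the interaction; up to 6 per direction between lines; the 5 highest per kb in each line; and 11 members in any case (TRIM5, TRIM16, TRIM21, TRIM22, TRIM24, TRIM25, TRIM28, TRIM29, TRIM33, TRIM37 and TRIM59). It did not require naming all of them, and some are given only by group mean, range or fold change, as are the remaining members.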

Additional observations from a re-analysis of the deposited data

Results flagged for a closer look

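The interaction test of edgeR called 2 members, TRIM56 and TRIM9. For TRIM56 the response of UPCI-SCC-090 minus that of UM-SCC-47 was −2.44 on the log2 scale (SE 0.57, adjusted p = 0.0265), a larger fall in UPCI-SCC-090, where its 3 JQ1 libraries had 0.60, 0.55 and 0.25 CPM. The TRIM56 call was kept in 17 of 23 alternatives, with adjusted p between 0.00243 and 0.0865. For TRIM9 the fitted value was 2.34 (SE 0.40, adjusted p = 0.00605), but TRIM9 had at most 19 counts per library in UM-SCC-47 and passed the filter only through UPCI-SCC-090, so the value says nothing on a difference between the lines.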

How the results depend on the processing

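With library size only, 1 member was called higher in UPCI-SCC-090, 4 higher and 20 lower in UM-SCC-47, and 2 had a lower interaction. Members called lower in UPCI-SCC-090 numbered 5 with RLE size factors, 6 with upper-quartile factors, 6 with DESeq2 and 7 with no filter, against 11. With the GC correction 8 were called higher in UPCI-SCC-090, and the interaction gave 4 higher and 5 lower. Without the libraries of the steepest GC trends UPCI-SCC-090 had 2 higher and 7 lower and the interaction 0 lower (1 higher). In 1 fit over 12 libraries 4 were called higher in UM-SCC-47. Above an absolute log2 fold change of 1, UM-SCC-47 had 2 higher and 7 lower and the lines differed in 6 higher with DMSO. TRIM28 in UPCI-SCC-090 turned to 0.48 with the GC correction (adjusted p = 0.0194) and 0.48 with the replicate block and GC correction (adjusted p = 0.0411).

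Whether the replicate numbers pair the samples was not settled. Same-numbered JQ1 and DMSO libraries had r of 0.095, 0.789 and 0.207 in UPCI-SCC-090 and −0.147, 0.199 and 0.429 in UM-SCC-47. Differently numbered libraries had r between −0.851 and 0.793 in UPCI-SCC-090 and between −0.353 and 0.284 in UM-SCC-47. Deviations from the mean of 3 libraries depend on each other, and libraries differed in GC trend, so these r cannot decide it. With the replicate block 4 were higher and 11 lower in UPCI-SCC-090, and 7 higher and 12 lower in UM-SCC-47. With the replicate block and GC correction 7 were higher in UPCI-SCC-090, and the interaction gave 2 higher and 3 lower.

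Leaving out 1 library gave between 0 and 4 higher and between 4 and 9 lower in UPCI-SCC-090, and between 2 and 11 higher and between 10 and 14 lower in UM-SCC-47. The interaction gave 1 higher throughout (TRIM9, which passed the filter only through UPCI-SCC-090) and between 0 and 3 lower, with 0 without UM-SCC-47 DMSO replicate 1, 2 or 3, UM-SCC-47 JQ1 replicate 1 or UPCI-SCC-090 DMSO replicate 2, and 3 without UPCI-SCC-090 DMSO replicate 1 or JQ1 replicate 2. Between lines it gave between 7 and 17 higher, lowest without UM-SCC-47 DMSO replicate 1 or 3, and between 13 and 18 lower. The log2 ratio of the summed TRIM43 and TRIM49 groups was 7.19 and lay between 6.79 and 7.45. In UPCI-SCC-090 the calls of TRIM4 and TRIM46 were lost only without JQ1 replicate 1 (adjusted p = 0.0546 and 0.0568), whereas TRIM21, TRIM66 and TRIM69 were lost in 11, 10 and 13 of 18 alternatives. The causes were not tested.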
